A study of Mus musculus with 137 samples.

Results

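The genes described here are 38 genes of the lysosome and of the transcription factors that control it, chosen by name from 34573 gene symbols measured in mouse bone marrow-derived macrophages (BMDMs). They comprise 9 cathepsins, 11 other acid hydrolases, 4 hydrolase activators and lipid-transfer proteins, 5 lysosomal membrane proteins, 6 subunits or partners of the vacuolar proton pump (v-ATPase), and the 3 transcription factors Tfeb, Tfe3 and Mitf. All 38 symbols were found, and all 38 passed the filter on low counts in each cohort. The study compared macrophages with altered Beclin1, a core autophagy protein, with their controls before and after inflammatory activation, in 3 cohorts. The KO1 cohort (54 libraries) and the KO2 cohort (47 libraries) compared Beclin1flox/flox-LysM-Cre+ (KO) with Beclin1flox/flox-LysM-Cre- (WT) macrophages, so both genotypes carried the floxed allele. The KI cohort (36 libraries) compared Beclin1F121A/F121A (F121A) macrophages with WT cells of littermates. All mice were 7 weeks old, and their marrow cells were grown in M-CSF (20 ng/ml) over 7 days. Cells were collected without stimulation (0 h) or after 6 or 24 h of LPS plus IFN-gamma (each 100 ng/ml), the classical macrophage-activating pair. Expression was measured by Smart-Seq2, a poly(A)-based method that does not mark the RNA strand. KO1 had 3 numbered samples per genotype, which recur at 0, 6 and 24 h with 3 libraries each time, and these were summed to n = 3. A numbered sample of KO1 is called a culture here, although the labels do not say whether it was a culture or a mouse. KO2 had 8 libraries per group (7 for WT at 24 h), and KI had 6 per group. The labels do not say whether replicates were separate mice, so p-values measure the spread between these samples, which may be technical.

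Lysosomes are acidic compartments in which hydrolases break down proteins, lipids, glycans and nucleic acids, including the cargo that autophagy delivers. The v-ATPase pumps in the protons, and membrane proteins such as LAMP2 form the wall and the export routes. TFEB, TFE3 and MITF (the MiT/TFE factors) bind E-box sequences, among them the CLEAR element built around CACGTG, near many lysosomal genes, and their entry into the nucleus is restrained by mTORC1 on the lysosomal surface. In macrophages lysosomes also digest engulfed particles and prepare antigens. Beclin 1 belongs to the lipid kinase complex that starts autophagosome formation. LysM-Cre deletes floxed segments in myeloid cells from the Lyz2 locus, and the F121A change is known to loosen the hold of BCL2 on Beclin 1.

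RefSeq promoter windows (GRCm38.p6, 250 bases before to 50 bases after the annotated start) were available for 32 of the 38 genes. The palindrome CACGTG was present in 10 of these 32 (31.2%), against 8.09% of the 27025 symbols with a window. TCACGTG, on either strand and overlapping CACGTG, was present in 9 (28.1%, against 4.29%). TCACGTGA, which contains both, was present in 6 (18.8%, against 1.12%), namely those of Ctsa, Ctsd, Gla, Mcoln1, Atp6v0d1 and Atp6v1a. The related E-box CATGTG, on either strand, was present in 7 (21.9%, against 15.9%). A match is a description of these letters and not a measured binding site.

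The 9 promoters with TCACGTG are shown, since they carry the letters of the CLEAR core. Capitals mark TCACGTG and CATGTG on either strand. Mcoln1 (chr8:3500269-3500518, + strand), Ctsd (chr7:142387828-142388077, - strand) and Gla (chrX:134601006-134601255, - strand) are given for the 250 bases before the start. The others are given around the match only: Atp6v1a (chr16:44139360-44139419, - strand), Naglu (chr11:101069994-101070053, + strand), Glb1 (chr9:114400998-114401057, + strand), Gaa (chr11:119267793-119267852, + strand), Ctsa (chr2:164833758-164833787, + strand) and Atp6v0d1 (chr8:105566050-105566079, - strand).
Mcoln1: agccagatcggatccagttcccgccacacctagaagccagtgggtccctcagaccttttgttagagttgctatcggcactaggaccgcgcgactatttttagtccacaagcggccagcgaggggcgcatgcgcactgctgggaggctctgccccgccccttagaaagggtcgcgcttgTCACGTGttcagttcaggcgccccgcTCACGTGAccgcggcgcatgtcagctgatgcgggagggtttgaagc
Ctsd: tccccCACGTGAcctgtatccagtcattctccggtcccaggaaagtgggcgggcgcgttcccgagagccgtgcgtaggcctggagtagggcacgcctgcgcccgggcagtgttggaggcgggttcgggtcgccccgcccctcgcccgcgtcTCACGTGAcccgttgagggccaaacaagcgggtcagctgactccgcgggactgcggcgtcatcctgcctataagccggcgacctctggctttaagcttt
Gla: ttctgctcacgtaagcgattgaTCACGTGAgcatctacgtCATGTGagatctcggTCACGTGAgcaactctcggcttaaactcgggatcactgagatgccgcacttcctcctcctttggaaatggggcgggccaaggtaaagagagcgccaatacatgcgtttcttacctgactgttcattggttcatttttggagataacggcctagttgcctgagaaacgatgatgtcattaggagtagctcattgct
Atp6v1a: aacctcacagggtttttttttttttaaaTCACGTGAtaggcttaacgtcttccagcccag
Naglu: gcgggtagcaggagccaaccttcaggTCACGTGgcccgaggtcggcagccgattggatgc
Glb1: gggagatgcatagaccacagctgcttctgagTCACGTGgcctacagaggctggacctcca
Gaa: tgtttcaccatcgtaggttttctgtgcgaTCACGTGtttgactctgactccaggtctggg
Ctsa: tgTCACGTGAtgcagatgcTCACGTGAcca
Atp6v0d1: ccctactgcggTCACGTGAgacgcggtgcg

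The number of counts in genes per library was 1898574 to 6579185 for KO1. It was 1448218 to 15627379 for KO2 and 3574158 to 11786453 for KI. Levels are CPM (counts scaled to a common library total) adjusted by TMM, which sets library totals so that most genes keep a ratio near 1 between libraries. With library size alone, the median log2 change of all genes from 0 to 6 h in WT moved by -1.02 in KO1, -0.82 in KO2 and -1.2 in KI, so rises and falls with time are relative to the typical gene. Becn1 itself was lower in KO than in WT at each time, by 3.28, 3.31 and 2.63 on the log2 scale in KO2 and by 1.51, 1.52 and 1.41 in KO1 (edgeR adjusted p 0.00453, 0.00784 and 0.0167 in KO1). In KI its difference between genotypes was not called at any time. Markers of macrophages, the labelled cell type, were present in every group, with none of the 8 at 0. Because strand was not marked, reads shared with a neighbouring gene on overlapping exons cannot be assigned for Ctsb (Fdft1), Hexa (Tmem202) and Ctsa (Neurl2 and Pltp). In KO2, Xist was at 70 to 340 unscaled CPM in WT and at 0 to 1.62 in KO, and Ddx3y was at 0 to 0.519 in WT and 5.33 to 24.3 in KO. The sex of the cells and the genotype therefore cannot be told apart in KO2, which touches the X-linked Lamp2, Gla, Atp6ap1 and Tfe3 most directly. Ddx3y was present in all KO1 cultures and Xist in all KI libraries. For 2 libraries, 1 KO library of KO1 and 1 WT library of KI, the title and the description name different times, and the title was used.

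Before stimulation, the lysosomal genes took 10.6% to 14.1% of all counts in WT libraries of the 3 cohorts. Per kb of exon, Ctsd, the main aspartic protease of lysosomes, had the highest median level in each cohort, at 6463 CPM per kb in KO1, 10481 in KO2 and 8285 in KI. The cysteine protease Ctss had 4731, 8105 and 7005 CPM per kb. Psap, the precursor of the saposins that help hydrolases reach lipids, had 4943, 5188 and 2436, above Ctss in KO1 only. The levels of Ctsb, another cysteine protease, were 2391, 3025 and 2955. At the other end lay the bone-matrix protease Ctsk (1.36, 1.88 and 1.7 CPM per kb), Tfeb (1.01, 2.82 and 1.72) and the calcium channel gene Mcoln1 (1.92, 4.1 and 2.94). The median of Mitf was above that of Tfe3 in KO1 and KO2 (9.88 against 3.65, and 6.69 against 5.34) and below it in KI (4.9 against 5.32). The share of counts in the lysosomal genes was 4.04% to 5.27% at 6 h and 5.3% to 6.99% at 24 h in WT, with no overlap with the libraries at 0 h in any cohort.

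The first question was how activation changes these genes in WT cells. At 6 h more of them fell than rose in each cohort. In KO1, 19 of 38 fell and 4 rose, where 31% of all 13693 genes tested fell and 25.7% rose (edgeR quasi-likelihood test, Benjamini-Hochberg adjusted p under 0.05). In KO2, 28 fell and 7 rose, against 38.4% and 32.4% of 10794 genes. In KI, 26 fell and 8 rose, against 36.8% and 36.7% of 11500 genes. The median log2 change of the 38 was -0.71, -0.79 and -0.57 in KO1, KO2 and KI, beside -0.09, -0.11 and 0.00 over all genes. In KO1, the deviations of same-numbered WT cultures from their group means correlated by at least 0.172 between 0 and 6 h in the 3 pairs. Those of differently numbered KO1 samples correlated between -0.764 and 0.743, so these values do not show that the numbers pair the cultures. With the culture number as a block, 27 of the 38 were called in KO1 at 6 h, the added ones being Man2b1 (-0.89, adjusted p 0.0114), Gpnmb (-0.71, 0.0461), Npc2 (0.94, 0.0414) and Atp6v0d2 (-1.60, 0.000112), and without culture S33 it was 15. At 24 h, 10 fell and 7 rose in KO1 (background 20.6% and 21.3%), 28 fell and 6 rose in KO2 (29.2% and 29.9%), and 26 fell and 9 rose in KI (29.9% and 33.9%). The block added 24 h calls in KO1 for Gla (0.56, edgeR adjusted p 0.0338), Glb1 (-0.57, 0.0376), Lipa (-0.74, 0.0399) and Neu1 (0.46, 0.0431). Between 0 and 24 h the lowest correlation of same-numbered WT cultures was -0.0709. The 24 h medians were -0.04, -0.64 and -0.46, beside -0.11, -0.02 and 0.03. With library size alone, 34, 34 and 33 fell and 2, 4 and 1 rose at 6 h, and 27, 31 and 31 fell and 3, 4 and 4 rose at 24 h. Under that scaling the median log2 change of all genes was -1.11, -0.93 and -1.19 at 6 h. At 24 h it was -1.14, -0.47 and -0.84. The shares of all genes given above do not apply to these counts. In bulk RNA, fewer cells of a type and less RNA per cell cannot be told apart.

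**Figure D1:**
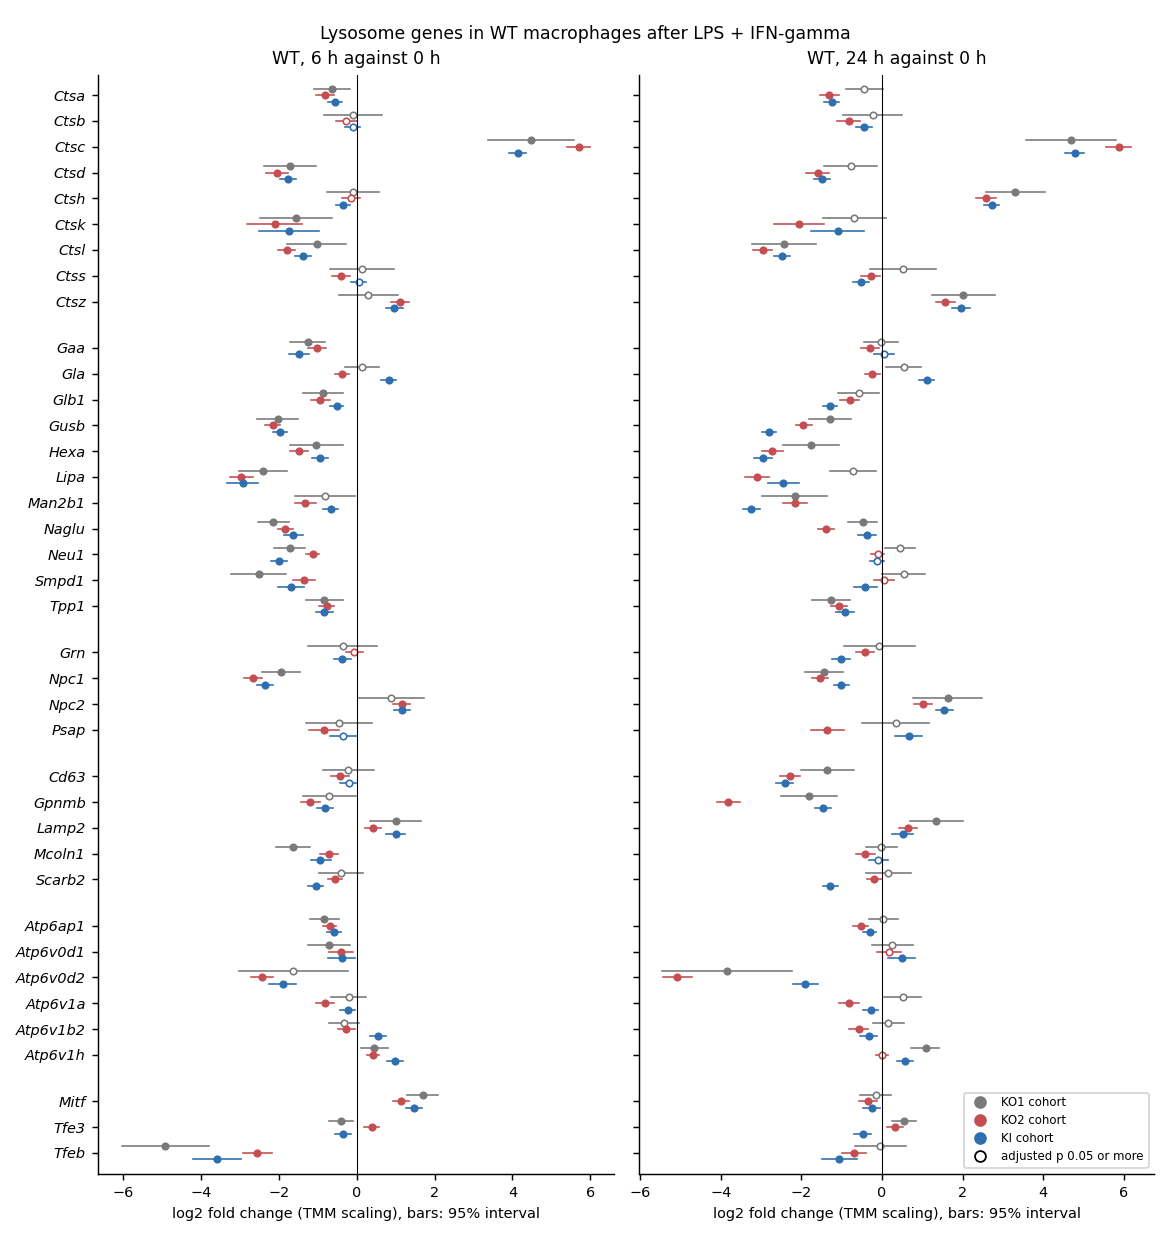
Log2 change of each lysosomal gene in WT macrophages at 6 h (left) and 24 h (right) against 0 h, with 95% intervals, ordered by role and coloured by cohort; open symbols have an adjusted p of 0.05 or more. Ctsc lies farthest right at both times, and nearly all acid hydrolases lie left of 0 at 6 h.

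In all 3 cohorts, 18 of the lysosomal genes fell and 4 rose at 6 h, and 10 fell and 5 rose at 24 h. The 6 called lower in every cohort at both times were Ctsl, Hexa, Gusb, Naglu, Tpp1 and Npc1. In KO1 the 24 h call of Naglu was lost in 6 of 14 alternative fits. The KO1 calls of Ctsl, Hexa and Tpp1 at 6 h were lost in 5, 2 and 1 of 14. In KI the 24 h call of Naglu was lost without WT 24 h libraries 2, 4 and 6 (edgeR adjusted p 0.0672). The share of all genes that fell or rose in all 3 cohorts, at either time or at both, was not counted. These numbers therefore do not show whether the lysosomal genes differ from other genes in this respect. Ctsc and Lamp2 rose in every cohort at both times, the latter with 2 limits given below: its sign with library size alone, and the KI libraries at 24 h on which its rise there rests.

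Among the 9 cathepsins, lysosomal proteases of several families, the changes went in both directions. Ctsc, which trims and activates granule serine proteases, had the largest rise of the 38 genes in each cohort at both times. Its CPM in WT KO1 cultures S33, S34 and S35 was 521, 299 and 845 at 0 h, 9473, 12991 and 14479 at 6 h, and 13115, 14936 and 15265 at 24 h. In KO2 the lowest, median and highest values were 172, 192 and 218 at 0 h, 8499, 10290 and 11634 at 6 h, and 7634, 11470 and 14824 at 24 h. In KI they were 390, 443 and 478, then 6738, 7547 and 8720, then 9778, 11895 and 14964. Every stimulated library was far above every unstimulated one. The log2 rises at 6 h were 4.47 ± 0.57 (SE), 5.71 ± 0.15 and 4.13 ± 0.11 in KO1, KO2 and KI, with edgeR adjusted p of 2.0e-06, 5.4e-39 and 7.5e-31.

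Ctsh, an aminopeptidase that also processes surfactant and granule proteins, was late. Its CPM in KO1 was 251, 242 and 311 at 0 h, 138, 214 and 401 at 6 h, and 1825, 3107 and 3016 at 24 h. In KO2 the medians were 385, 346 and 2335 at 0, 6 and 24 h, and in KI 557, 413 and 3541. At 6 h the groups overlapped with those at 0 h, and the gene was called only in KI, where it fell by 0.35. At 24 h there was no overlap, and it rose by 3.31 ± 0.38, 2.58 ± 0.13 and 2.72 ± 0.09 on the log2 scale. Ctsz, a carboxypeptidase, also rose in all cohorts at 24 h (log2 2.02, 1.56 and 1.96). At 6 h it rose in KO2 by 1.11 and in KI by 0.97, where with library size alone the sign of the KI change turned negative.

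Ctsl, a broad endopeptidase, was lower at 6 h and lower again at 24 h. Its KO1 values were 6841, 4680 and 6851 CPM at 0 h, 2461, 1609 and 4932 at 6 h, and 1001, 799 and 1617 at 24 h. KO2 medians were 8117, 2367 and 1024, and KI medians 2025, 773 and 347, with no overlap between 0 h and either later time in these 2 cohorts. The 24 h log2 changes were -2.43 ± 0.40, -2.96 ± 0.13 and -2.48 ± 0.10. Ctsd fell at 6 h by 1.71, 2.04 and 1.77 on the log2 scale, and at 24 h by 1.6 in KO2 and 1.49 in KI. Its 24 h change in KO1 was -0.78 with an adjusted p of 0.0666, although the cultures (6946, 10360 and 8161 CPM) lay below all 3 at 0 h (13335, 15335 and 15195). Ctsk, present at only 1.12 to 4.9 CPM at 0 h in WT, fell at 6 h in each cohort (log2 -1.56, -2.11 and -1.75). Ctsb was not called at 6 h in any cohort and fell at 24 h in KO2 (-0.83) and KI (-0.45). Ctss, the class II antigen-processing protease, fell in KO2 (-0.41 at 6 h and -0.28 at 24 h) and in KI at 24 h (-0.52). Ctsa, a carboxypeptidase that shields the galactosidase and sialidase, fell at 6 h in all cohorts by 0.55 to 0.81.

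The 11 other hydrolases mostly fell at 6 h, with 9 lower in KO1, 11 in KO2 and 10 in KI, and median log2 changes of -1.26, -1.32 and -1.49. The exception in KI was Gla, the alpha-galactosidase, which rose by 0.82 there, with its sign turning negative with library size alone, and fell by 0.39 in KO2. Lipa, the acid lipase that frees cholesterol from its esters, was at 1271, 1469 and 1395 CPM at 0 h in KO1 and at 272, 291 and 214 at 6 h. In KO2 it went from 3138, 4346 and 5455 (lowest, median, highest) to 380, 596 and 702, and in KI from 2915, 3163 and 3296 to 355, 418 and 457. The log2 falls were -2.41 ± 0.31, -2.96 ± 0.15 and -2.93 ± 0.20, with no overlap in any cohort. By 24 h Lipa still lay at a median of 496 in KO2. The KI median was 569, but no KI library lay near it. Libraries 2, 4 and 6 were at 309, 292 and 299, below all KI values at 6 h. Libraries 3 and 5 were at 895 and 841, above all KI values at 6 h, with library 1 close below these 2. The KI log2 change at 24 h was -2.45 with all libraries. It was -3.39 without libraries 1, 3 and 5, and -1.87 without 2, 4 and 6, the sets described below. The KO1 cultures were at 848, 1022 and 644, and the change (-0.72) was not called without a block. With the culture number as a block it was called (-0.74, edgeR adjusted p 0.0399).

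Other hydrolases were low at 6 h and nearer to their starting level at 24 h, some of them still called lower. Neu1, the lysosomal sialidase, had KO1 values of 52.8, 61.9 and 59.1 CPM at 0 h, 13.3, 19.8 and 19.7 at 6 h, and 76, 80.8 and 81.3 at 24 h. Its medians in KO2 were 73.7, 35.1 and 70.4, and in KI 59.4, 14.4 and 51.7. It fell at 6 h in each cohort (log2 -1.72, -1.13 and -2.0) and, without a block, was not called at 24 h in any (0.45, -0.11 and -0.13). With the culture number as a block, Neu1 was called higher at 24 h in KO1 (0.46, edgeR adjusted p 0.0431). Smpd1, the acid sphingomyelinase, fell by 2.52, 1.35 and 1.69 at 6 h, and at 24 h its log2 change was 0.54 and 0.05 in KO1 and KO2, not called, and -0.41 in KI. Gaa, which degrades glycogen, fell by 1.26, 1.02 and 1.49 at 6 h, and its 24 h changes lay between -0.3 and 0.05. At 24 h it was called in KO2 only, as lower, and that call was lost with no filter (edgeR adjusted p 0.0617). Naglu, needed for heparan sulfate breakdown, fell by 2.14, 1.83 and 1.63 at 6 h and was still lower at 24 h, by 0.48, 1.4 and 0.37.

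Hexa and Man2b1 had lower log2 changes from 0 h at 24 h than at 6 h in each cohort. Hexa, a beta-hexosaminidase subunit, changed by -1.04, -1.48 and -0.94 at 6 h and by -1.77, -2.73 and -2.96 at 24 h. Its KI values went from 1601, 1827 and 1888 CPM to 680, 933 and 1198 and then to 203, 231 and 255, with no overlap between times. Man2b1, an alpha-mannosidase, changed by -0.81 (not called), -1.32 and -0.67 at 6 h and by -2.16, -2.17 and -3.24 at 24 h. Gusb, beta-glucuronidase, fell by about the same amount in each cohort at 6 h (-2.03, -2.16 and -1.97), and by 1.28, 1.95 and 2.8 at 24 h. Tpp1, a tripeptidyl peptidase, and Glb1, beta-galactosidase, fell by 0.51 to 0.94 at 6 h.

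**Figure D2:**
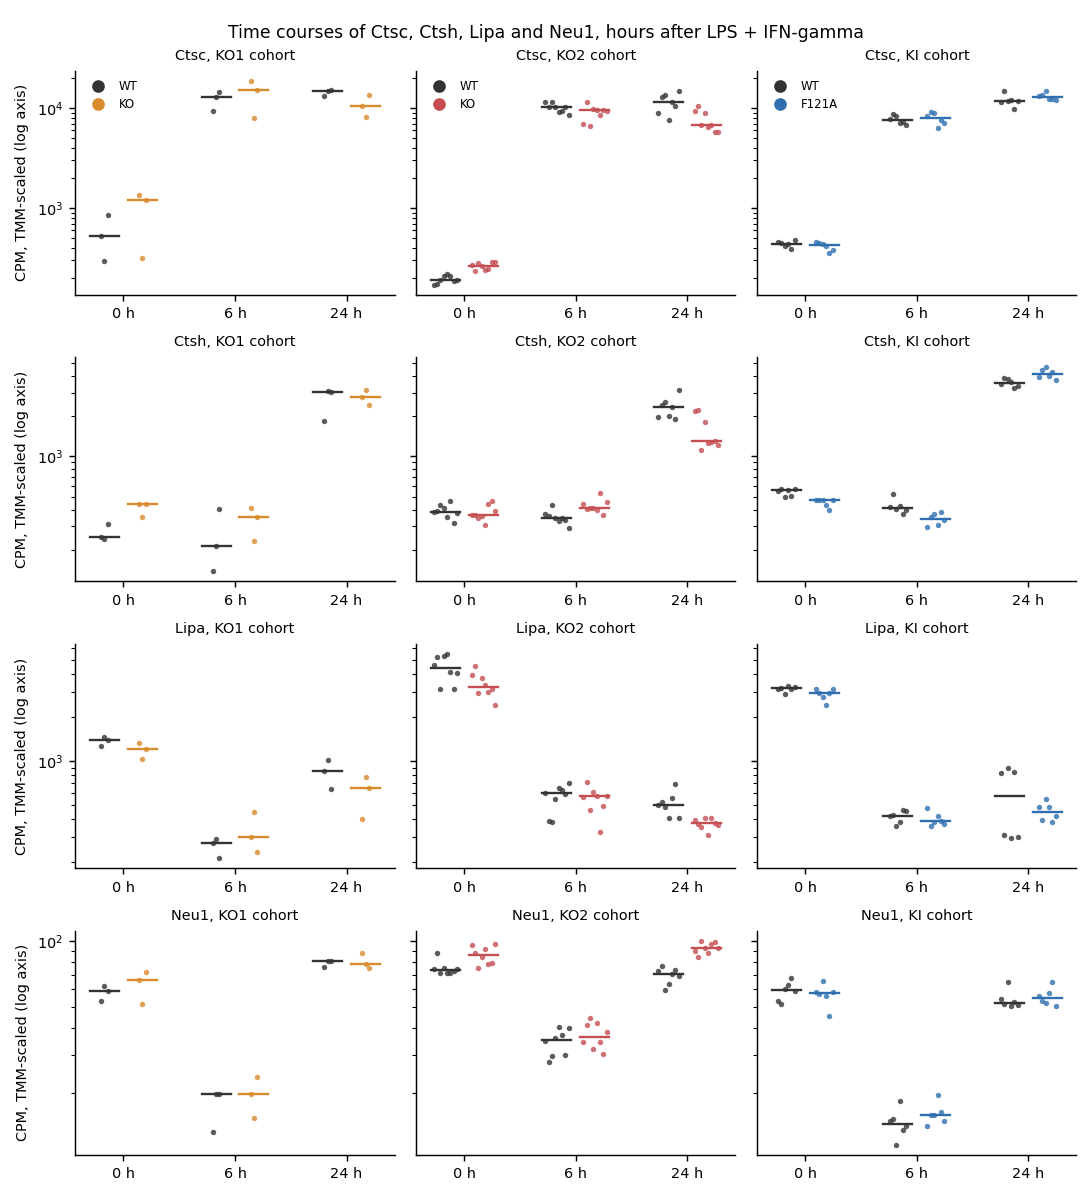
TMM-scaled CPM on a log axis for Ctsc, Ctsh, Lipa and Neu1 at 0, 6 and 24 h in each cohort; points are cultures (KO1) or libraries (KO2, KI) and lines mark group medians. Ctsc is high at both later times, Ctsh only at 24 h, Lipa is low at 6 h, and Neu1 is low at 6 h and back near its starting level at 24 h.

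The cholesterol transfer partners went apart. Npc2, the soluble carrier, had KO2 values of 1666, 1856 and 2161 CPM at 0 h and 3230, 4154 and 5055 at 6 h, and rose by 1.16 in KO2 and in KI, although in KI the sign turned with library size alone. At 24 h it rose in all cohorts (1.63, 1.01 and 1.55). Npc1, the membrane transporter, had KO2 values of 54.3, 60.3 and 70.1 CPM at 0 h and 7.56, 9.46 and 12.5 at 6 h. Its log2 changes at 6 h were -1.94 ± 0.25, -2.67 ± 0.12 and -2.35 ± 0.10 in KO1, KO2 and KI, and at 24 h -1.43, -1.54 and -1.01. Psap had changes of opposite sign at 24 h: it fell by 1.36 in KO2, rose by 0.66 in KI with its sign turning with library size alone, and was at 0.34, not called, in KO1. Grn, the progranulin gene, fell at 24 h in KO2 (-0.42) and KI (-1.01).

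Of the membrane proteins, Lamp2, a major wall protein and receptor of chaperone-mediated autophagy, rose at 6 h by 1.0, 0.42 and 1.0 in KO1, KO2 and KI, and in all 3 the sign turned negative with library size alone. Its 24 h rises were 1.35, 0.65 and 0.51, the last again with a turned sign. The KI rise was 0.08 (adjusted p 0.581) without WT 24 h libraries 2, 4 and 6, and 0.85 without libraries 1, 3 and 5, which are 2 sets that stand apart as described below. In KO1 the Lamp2 call was lost at 6 h without culture S33 (adjusted p 0.0633) or S34 (0.129), and at 24 h without S34 (0.0639). Cd63, a tetraspanin of late endosomes, fell at 24 h by 1.36, 2.28 and 2.42, with KO2 values of 441, 547 and 747 CPM at 0 h and 102, 116 and 165 at 24 h. Gpnmb, a glycoprotein that is a known MITF and TFE3 target, went in KO2 from 8753, 10731 and 11414 CPM at 0 h to 3777, 4491 and 5569 at 6 h and 573, 747 and 979 at 24 h. Its 24 h log2 changes were -1.81 ± 0.36, -3.82 ± 0.15 and -1.46 ± 0.10. Mcoln1 fell at 6 h (-1.63, -0.71 and -0.93), and its 24 h changes were -0.02, -0.41 and -0.1, called in KO2. Scarb2, the receptor that carries glucocerebrosidase, fell at 6 h in KO2 (-0.57) and KI (-1.05).

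The v-ATPase genes did not move as a unit. Atp6v0d2, an alternative membrane-sector subunit known from osteoclasts and macrophages, had KO2 values of 36.5, 42 and 49.2 CPM at 0 h, 3.84, 8.21 and 11 at 6 h, and 0.75, 1.2 and 2.25 at 24 h. KO1 cultures were at 33.5, 39.3 and 15.8, then 14, 6.29 and 8.27, then 1.68, 2.01 and 2.45. KI medians were 15, 4.19 and 3.56. At 24 h no library overlapped with 0 h, and the log2 falls were -3.84 ± 0.82, -5.08 ± 0.18 and -1.9 ± 0.16. Its housekeeping counterpart Atp6v0d1 fell by 0.39 to 0.71 at 6 h and was not called at 24 h in KO1 and KO2, and its rise of 0.49 in KI changed sign with library size alone. Atp6v1h, a regulatory subunit, rose at 6 h by 0.45, 0.41 and 0.98, in all cases with a turned sign with library size alone, and Atp6ap1, an accessory subunit, fell at 6 h by 0.83, 0.69 and 0.58. The catalytic Atp6v1a and its partner Atp6v1b2 changed by at most 0.82 in either direction, and the 6 h rise of Atp6v1b2 in KI (0.55) turned with library size alone.

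The transcription factors moved in opposite directions. Tfeb had 89, 102 and 52 counts in the KO1 WT cultures at 0 h, 3, 0 and 0 at 6 h, and 43, 34 and 57 at 24 h. In KO2 its CPM was 10.2, 16 and 22 (lowest, median, highest) at 0 h, 1.83, 2.51 and 3.94 at 6 h, and 7.67, 10.8 and 11.5 at 24 h. In KI it was 6.18, 9.77 and 12.8, then 0, 0.548 and 1.92, then 2.96, 4.44 and 6.85. The 6 h values lay below all 0 h values in each cohort, with log2 changes of -2.55 ± 0.19 in KO2 and -3.59 ± 0.31 in KI (edgeR adjusted p 6.5e-18 and 1.2e-13, and 6.9e-07 in KO1). At 24 h the fall was 0.7 in KO2 and 1.06 in KI, and KO1 was at -0.05, not called.

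Mitf went the other way at 6 h. KO1 cultures were at 49.7, 74.8 and 61.2 CPM at 0 h, 167, 219 and 212 at 6 h, and 47.8, 56.8 and 61.7 at 24 h. KO2 values were 33.7, 41.4 and 56.3, then 75, 89 and 126, then 27.8, 33.3 and 37.8, and KI values 26.4, 30.4 and 34.8, then 80.7, 83.6 and 95, then 18.3, 25.7 and 32. No 6 h value overlapped with 0 h in any cohort, and the rises were 1.69 ± 0.20, 1.14 ± 0.11 and 1.46 ± 0.11. Tfe3 changed little: it fell by 0.4 in KO1 and 0.35 in KI and rose by 0.38 in KO2 at 6 h, and at 24 h rose by 0.54 in KO1 and 0.33 in KO2 and fell by 0.48 in KI, where its 3 rises all changed sign with library size alone.

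**Figure D3:**
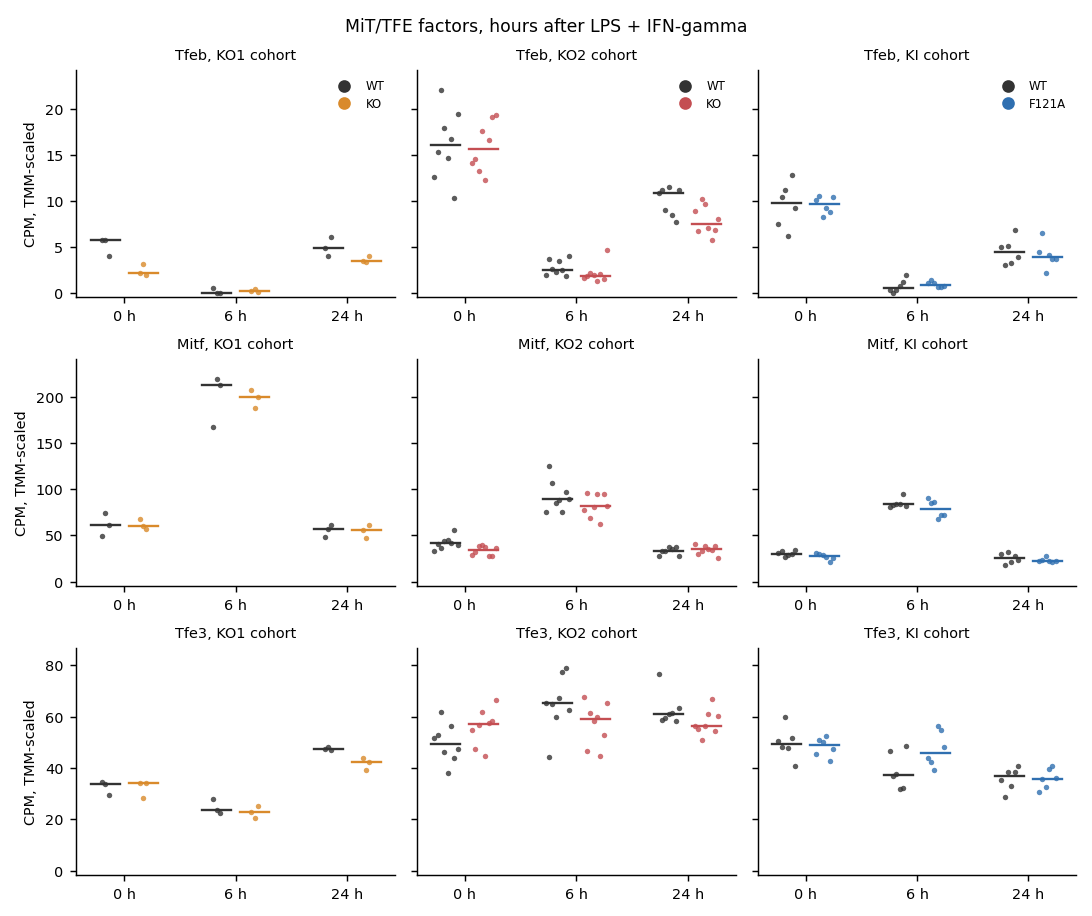
TMM-scaled CPM (linear axis) of Tfeb, Mitf and Tfe3 at 0, 6 and 24 h in WT and mutant cells of each cohort; points are cultures or libraries and lines are medians. Tfeb is lowest and Mitf highest at 6 h in both genotypes of each cohort.

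Of the 6 genes whose promoters held TCACGTGA, Ctsa, Ctsd, Mcoln1 and Atp6v0d1 fell at 6 h in all 3 cohorts, Atp6v1a fell in KO2 and KI, and Gla fell in KO2 and rose in KI. Of all 10 members with CACGTG in the window, 8 fell at 6 h in all 3 cohorts and 0 rose in all 3. Of the 22 with a window and no CACGTG, 9 fell and 3 rose in all 3. The difference between these counts was not tested. The share of all genes with or without CACGTG that fell in all 3 cohorts was not counted, so these numbers are no result about the motif. In KO1 the 6 h calls of Ctsa, Ctsl and Atp6v0d1 were each lost in 5 of 14 alternative fits, and that of Glb1 in 3. Among the genes without CACGTG, the KO1 call of Hexa was lost in 2, and those of Ctsk and Tpp1 in 1 each.

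The second question was whether loss of Beclin1 changes the lysosomal genes. In KO1, with 3 cultures per genotype, 0 of 38 were called between KO and WT at 0, 6 or 24 h by edgeR, where 0.0219%, 0.0219% and 0.0073% of all genes were called. DESeq2 called 0 at each time as well. At an unadjusted p under 0.05 there were 2 at 0 h (Ctsk and Tfeb), 0 at 6 h, and 3 at 24 h (Gaa, Gusb and Atp6v0d2). Their log2 differences ranged from -1.09 (Tfeb) to 0.92 (Ctsk) at 0 h, -0.45 to 1.08 at 6 h, and -0.79 to 1.87 (Atp6v0d2) at 24 h. The median SE was 0.29 to 0.315. Tfeb had 29, 71 and 32 counts in the KO cultures at 0 h and 89, 102 and 52 in WT. In CPM it was at 2.1, 3.11 and 1.96 in KO and at 5.72, 5.72 and 3.96 in WT, without overlap, and its adjusted p was 0.419. KO culture S37 stood above both other KO cultures in Atp6v0d2, at 106 CPM against 17 and 20.5 at 0 h, 30.8 against 7.49 and 6.1 at 6 h, and 16.5 against 4.19 and 2.69 at 24 h. The 24 h difference of Atp6v0d2 had a 95% interval of 0.22 to 3.52 and an adjusted p of 0.71. No genotype-by-time effect was called in KO1 (0% of all genes), and 1 member had an unadjusted p under 0.05 in that test.

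In KO2, with 7 or 8 libraries per group, some lysosomal genes were higher in KO and others lower at each time. At 0 h, 4 were higher and 6 lower, against 3.97% and 4.38% of all genes. At 6 h, 5 were higher and 4 lower, against 7.72% and 7.62%. At 24 h, 9 were higher and 6 lower, against 6.33% and 4.99%. The medians of the 38 were -0.04, -0.02 and 0.13, beside 0.01, 0.02 and -0.02 over all genes. With library size alone, 10 were higher and 4 lower at 0 h, and 15 higher and 2 lower at 6 h. Under that scaling the median difference of all genes was 0.2 at 0 h and 0.24 at 6 h, and the shares above do not apply. When libraries were summed in sets of 3 by replicate number, 5 were called at 0 h and 5 at 6 h.

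Atp6v0d2 was higher in KO at every time in KO2. At 0 h the lowest, median and highest values were 36.5, 42 and 49.2 CPM in WT and 74.4, 88.2 and 106 in KO. At 6 h they were 3.84, 8.21 and 11 in WT and 15.4, 18.2 and 21.4 in KO. At 24 h they were 0.75, 1.2 and 2.25 in WT, which rests on 4 to 15 counts, and 7.18, 9.98 and 11 in KO, on 15 to 86 counts. The genotypes did not overlap at any time. The log2 differences were 1.08 ± 0.12, 1.24 ± 0.15 and 2.93 ± 0.20, with edgeR adjusted p of 2.5e-10, 6.9e-09 and 1.0e-17.

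Gpnmb was higher in KO2 KO cells at 24 h. It was at 573, 747 and 979 CPM in WT and at 1774, 2335 and 3598 in KO, without overlap, a log2 difference of 1.79 ± 0.13 (adjusted p 3.9e-16). At 0 h its difference was -0.38 (adjusted p 0.0426), a call that was lost with library size alone (0.0945) and with libraries summed in sets of 3 (0.241), and at 6 h it was not called. The KO1 cultures at 24 h were at 782, 1771 and 588 CPM in KO and 570, 676 and 823 in WT, where only S37 lay above all WT values.

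Gla was higher in KO2 KO cells at each time, at medians of 79.8 against 55.2 CPM at 0 h, 64.2 against 43.6 at 6 h and 80.5 against 46.1 at 24 h. The ranges overlapped at 0 h (50.3 to 72.1 in WT, 64.1 to 88 in KO) and were apart at 6 and 24 h. The differences were 0.45 ± 0.09, 0.59 ± 0.09 and 0.76 ± 0.09. Gla is X-linked, and KO2 WT and KO differ in sex. Gaa was higher at each time too (0.35, 0.42 and 0.38). Its call was lost at 0 h with no filter (adjusted p 0.12), at 6 h when only the groups compared were fitted (0.0519), and at 24 h with library size alone (0.0503) or no filter (0.0786). Man2b1 was lower at each (-0.64, -0.72 and -0.56). Man2b1 stood at 147, 181 and 217 CPM in WT and 47.9, 112 and 160 in KO at 6 h, with overlapping ranges.

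Several hydrolases passed the test as higher in KO2 KO cells at 24 h and not at 0 or 6 h. Naglu was at 30.6, 33.2 and 41.2 CPM in WT and 49.5, 58.1 and 73.3 in KO (0.79 ± 0.10, adjusted p 1.0e-08). Ctsl was at 924, 1024 and 1460 in WT and 1452, 1679 and 2019 in KO (0.61 ± 0.12). Neu1 was at 59.8, 70.4 and 76.9 against 84.9, 93.1 and 101 (0.42 ± 0.09). Naglu and Neu1 did not overlap between genotypes, and the lowest KO library for Ctsl lay just under the highest of WT. Ctsk was higher by 1.6 ± 0.34 at 24 h, but on 0 to 13 counts per library in WT and 2 to 26 in KO. Mcoln1 was higher at 6 h (0.49 ± 0.13), at 14.2, 19.7 and 25.1 in WT and 21.1, 26.5 and 34.3 in KO.

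Ctsc and Ctsh, which rose with activation, were lower in KO2 KO cells at 24 h. Ctsc was at 7634, 11470 and 14824 CPM in WT and 5792, 6793 and 10440 in KO (-0.59 ± 0.13), whereas at 0 h it was higher in KO (172, 192 and 218 against 233, 266 and 290, a difference of 0.44 ± 0.13). Ctsh was at 1909, 2335 and 3146 in WT and 1121, 1295 and 2209 in KO at 24 h (-0.59 ± 0.12). Lipa was lower by 0.46, at 404, 496 and 689 against 307, 372 and 403, and Gusb by 0.45. Hexa and Ctsa were lower in KO at 0 h (-0.48 and -0.47) and at 6 h (-0.45 and -0.37), and Cd63 at 0 h (-0.53). Psap was lower at 6 h by 0.55 with an adjusted p of 0.0492.

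The change of the KO effect with time was tested in KO2, and 10 of 38 genes passed, where 11.9% of all genes did. They were Gpnmb (adjusted p 1.9e-14), Atp6v0d2 (9.5e-08), Ctsl, Ctsc, Naglu, Ctsh, Ctsa, Npc1, Hexa and Atp6v1h.

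**Figure D4:**
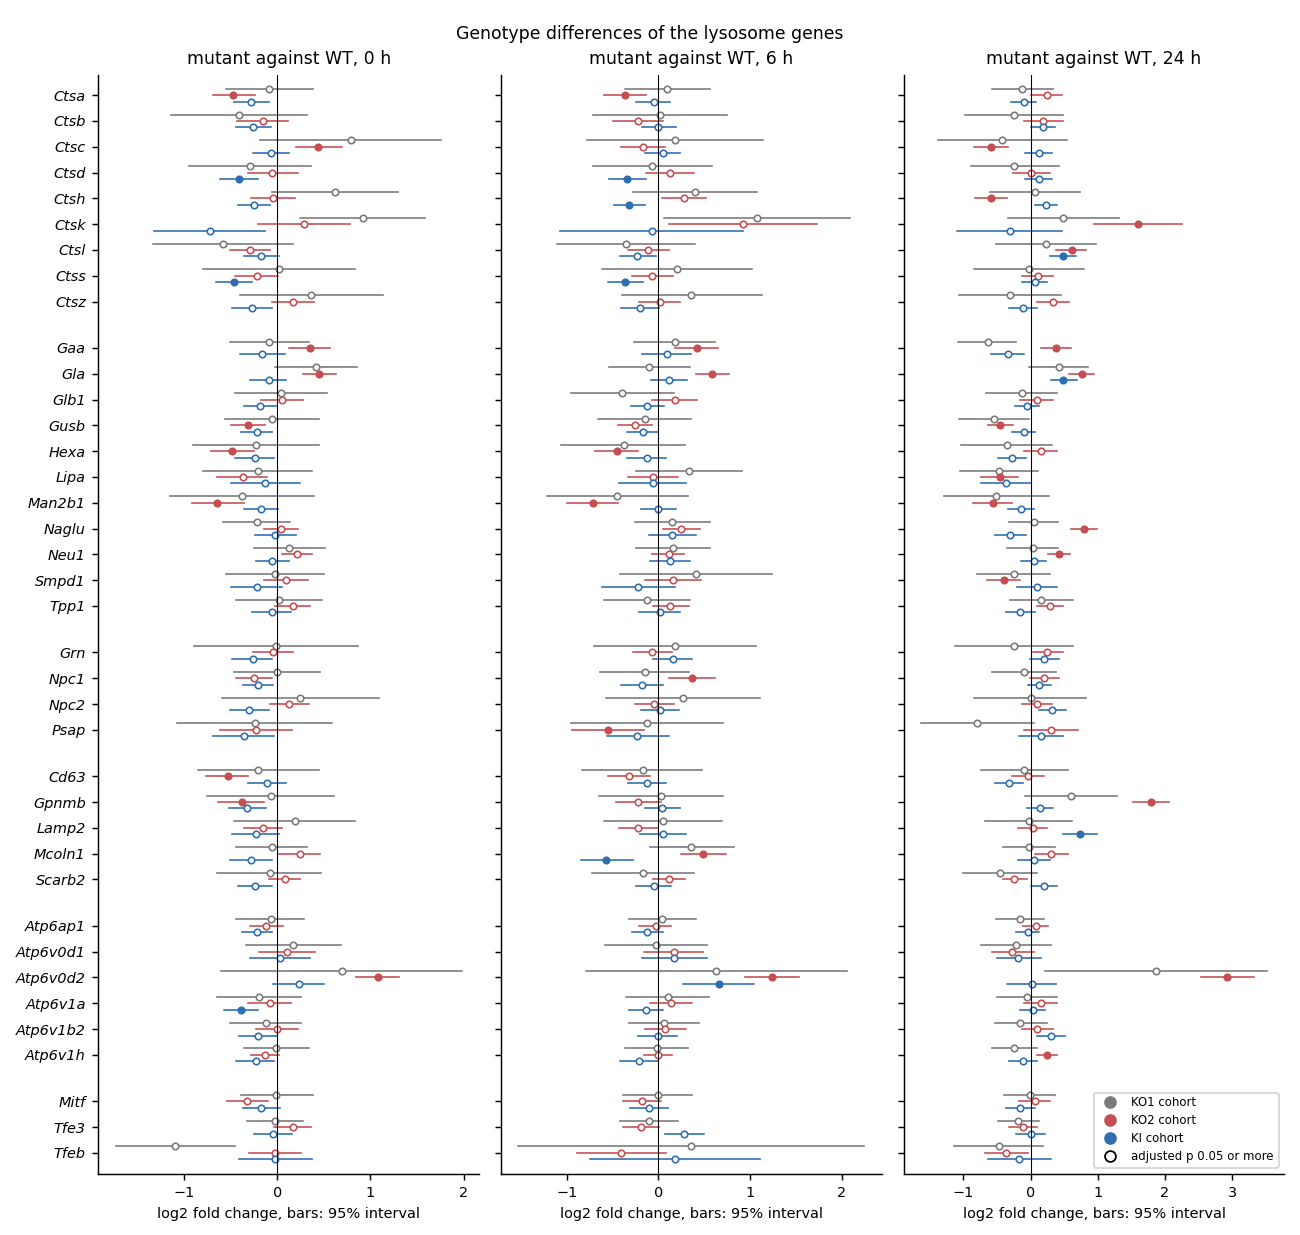
Log2 difference of mutant against WT for each lysosomal gene at 0, 6 and 24 h, with 95% intervals, by cohort; open symbols have an adjusted p of 0.05 or more. Atp6v0d2 in KO2 lies farthest right at 24 h, and all KO1 symbols are open.

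In KI, the 6 WT libraries at 24 h stood apart in a pattern that the labels do not account for. The first principal component of these 6 libraries held 48.7% of their variance and placed libraries 1, 3 and 5 (scores 0.45, 0.44 and 0.31) opposite libraries 2, 4 and 6 (-0.30, -0.44 and -0.47). Of the 38 genes, 7 were higher in all of 1, 3 and 5, 6 were higher in all of 2, 4 and 6, and 25 overlapped. The share of all genes that split in this way was not counted, so these numbers are no result about the lysosomal genes. Lipa was at 895 and 841 CPM in libraries 3 and 5, with library 1 close below them, and at 309, 292 and 299 in 2, 4 and 6. Lamp2 was at 1008, 986 and 832 against 1795, 1501 and 1527. For the lysosomal genes, the genotype tests at 24 h in KI and the WT calls are therefore also given without each of these sets. Differences of cell type markers in KI at 24 h are given with all libraries only. Less marked splits were seen in 2 other KI groups. In WT at 0 h the first component held 28.2% of the variance, with scores of 0.05, 0.57 and 0.48 for libraries 1, 3 and 5 and -0.28, -0.53 and -0.30 for 2, 4 and 6. In F121A at 6 h it held 32.7%, with scores of 0.36, 0.50 and 0.35 for libraries 1, 2 and 3 and -0.50, -0.35 and -0.37 for 4, 5 and 6. In addition, F121A library 5 at 0 h had 6.78% of its counts in the lysosomal genes, where the median of its group was 11.4%.

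At 0 h, F121A cells had 0 higher and 3 lower lysosomal genes, against 2.37% and 0.574% of all genes. Ctss was at 8227, 9513 and 10471 CPM in WT and 5961, 6962 and 7500 in F121A (-0.46 ± 0.10, adjusted p 0.00238). Ctsd was at 17828, 19479 and 21675 against 12580, 15070 and 16301 (-0.41 ± 0.10). Atp6v1a was at 531, 591 and 648 against 361, 465 and 512 (-0.39 ± 0.09, adjusted p 0.0104, and 0.0506 without library 5). The genotypes did not overlap for any of the 3, and 0 were called when libraries were summed in sets of 3. Without WT 0 h libraries 1, 3 and 5, Ctss alone was called (-0.53, adjusted p 0.0138), and without 2, 4 and 6 none was, while the differences of the 3 genes stayed between -0.53 and -0.39 either way. The median of the 38 at 0 h was -0.22, beside 0.01 over all genes. At 6 h, 1 was higher and 4 lower, against 7.99% and 3.49%. Atp6v0d2 was the higher one, at 2.48, 4.19 and 4.87 in WT and 4.88, 6 and 7.39 in F121A (0.66 ± 0.20, adjusted p 0.0215). Mcoln1 was lower, at 9.3, 12.1 and 13.2 against 4.36, 8.09 and 12 (-0.57 ± 0.15), as were Ctss (-0.36), Ctsd (-0.34) and Ctsh (-0.32). The 6 h median was -0.06, beside 0.02. With library size alone, 0 were higher and 4 lower at 6 h. Without F121A 6 h libraries 1, 2 and 3, the called genes were Mcoln1 (-0.68), Ctss (-0.47) and Tfe3 (0.44). Without libraries 4, 5 and 6 none was called, with Mcoln1 at -0.45 (adjusted p 0.161), Ctss at -0.25 (0.27) and Atp6v0d2 at 0.69 (0.0922).

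At 24 h, 3 were higher and 0 lower in F121A, against 3.42% and 3.78% of all genes. Lamp2 was at 832, 1254 and 1795 CPM in WT and 1858, 2128 and 2423 in F121A (0.74 ± 0.13, adjusted p 1.0e-04). Ctsl was at 276, 347 and 448 against 467, 500 and 533 (0.49 ± 0.10), and Gla at 63.8, 78.8 and 104 against a lowest of 103 and a median of 116 (0.49 ± 0.10). Without WT libraries 1, 3 and 5, none of these passed (Lamp2 0.41, adjusted p 0.058, Ctsl 0.29, adjusted p 0.202, and Gla 0.23, adjusted p 0.26). The 1 gene called then was Lipa, higher by 0.58, where 1.69% of all genes were called. Without libraries 2, 4 and 6, 7 were called, among them Lamp2 at 1.18 and Lipa, now lower, at -0.93, where 12.2% of all genes were called. The 24 h median of the 38 was 0.03 in the fit with all libraries.

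The test of genotype by time in KI called 7 of 38, where 8.32% of all genes were called. They were Ctsl (adjusted p 7.1e-04), Lamp2, Ctsh, Gla, Npc2, Ctss and Ctsd. Without WT 24 h libraries 1, 3 and 5 the test called 8, and without 2, 4 and 6 it called 9. In WT cells at 24 h against 0 h, the 35 called lysosomal genes became 34 and 28. Without libraries 1, 3 and 5 the call of Ctsk was lost. Without 2, 4 and 6 the calls of Naglu, Smpd1, Lamp2, Mitf, Atp6v0d1, Atp6v1a and Atp6v1b2 were lost.

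**Figure D5:**
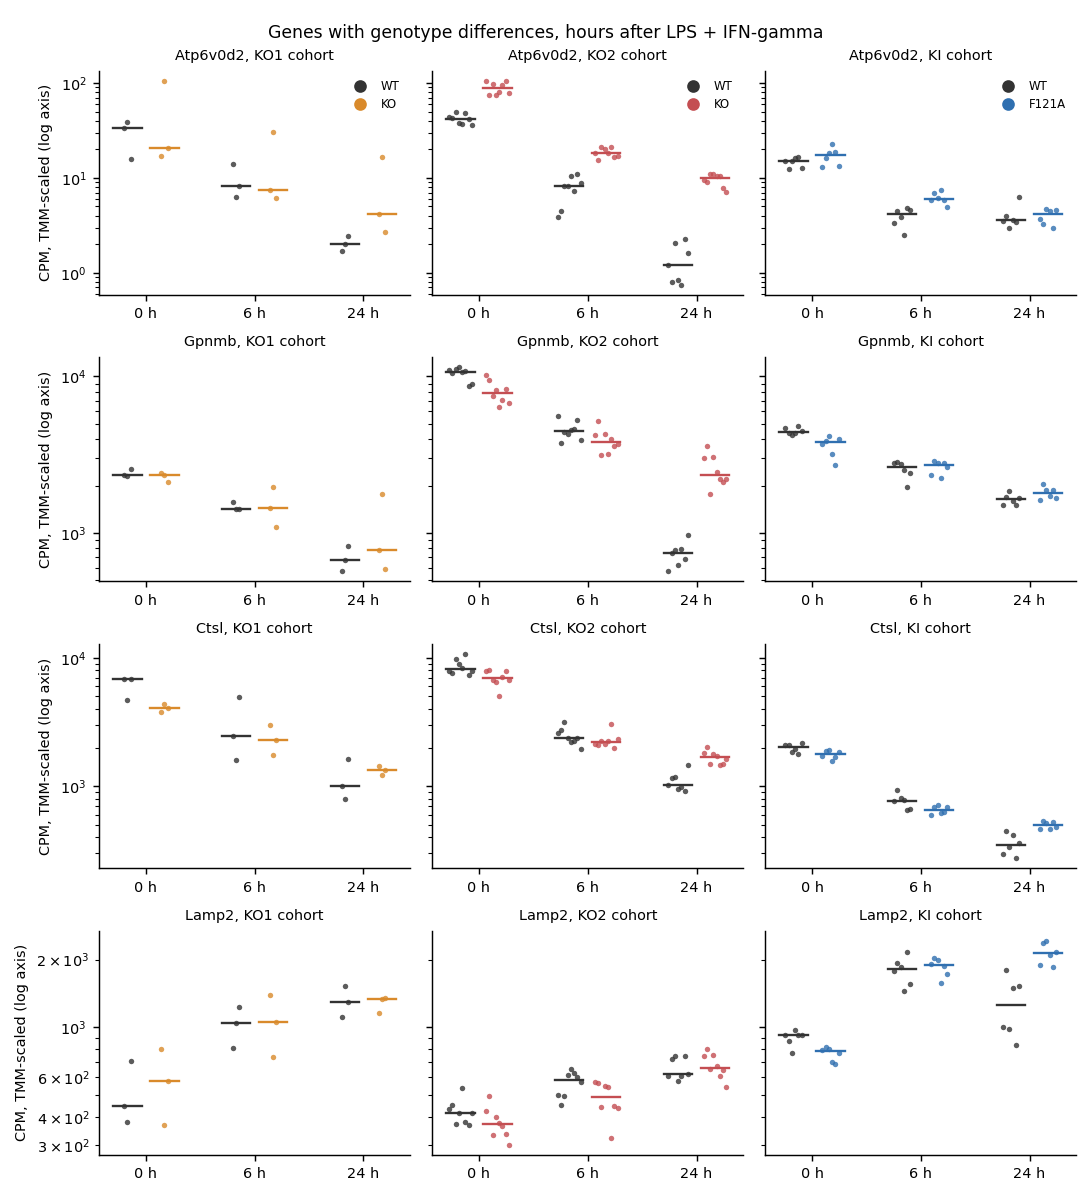
TMM-scaled CPM on a log axis for Atp6v0d2, Gpnmb, Ctsl and Lamp2 in WT and mutant cells at 0, 6 and 24 h in each cohort; points are cultures or libraries and lines are medians. In KO2 the KO libraries lie above WT for Atp6v0d2 at all times and for Gpnmb at 24 h, and in KI the F121A libraries lie above WT for Lamp2 at 24 h.

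The KO effect in KO2 and the F121A effect in KI were compared directly in a joint fit of both cohorts, in which the cohorts' own WT cells serve as reference. The difference passed for 2 of 38 genes at 0 h, 6 at 6 h and 9 at 24 h, where 3.87%, 12.2% and 7.1% of all genes passed. At 0 h these were Atp6v0d2 (0.85 ± 0.18 higher in the KO effect) and Gla (0.54). At 6 h the largest was Mcoln1, at 1.09 ± 0.20 (adjusted p 2.2e-05), a gene higher in KO cells of KO2 and lower in F121A cells, and the others were Man2b1, Ctsh, Npc1, Gla and Tfe3. At 24 h the largest were Atp6v0d2 (2.91 ± 0.28), Ctsk (1.91 ± 0.52), Gpnmb (1.65 ± 0.17) and Naglu (1.08 ± 0.15), all higher in the KO effect, and Ctsh (-0.82), Ctsc (-0.72), Lamp2 (-0.71) and Scarb2 (-0.44) were lower. Gaa was higher by 0.71. Without KI WT 24 h libraries 1, 3 and 5, Lamp2, Ctsc and Scarb2 no longer passed, and Gla and Lipa did. Without libraries 2, 4 and 6, all 9 still passed, and so did Neu1 (0.44) and Atp6v1h (0.50).

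Other genes of the pathway, listed by role, give the wider picture in WT cells, to be read beside the shares of all genes that fell and rose at 6 h: 31% and 25.7% in KO1, 38.4% and 32.4% in KO2, and 36.8% and 36.7% in KI. Of the other hydrolases and cofactors, 15 of 30 fell and 5 rose at 6 h in KO1, 20 of 29 and 5 in KO2, and 21 of 30 and 5 in KI. Sgsh, a heparan sulfatase, changed by -4.22, -5.43 and -4.61 on the log2 scale. Other lysosomal membrane proteins were split, with 15 of 25 lower and 7 higher in KO1, 16 of 26 and 8 in KO2, and 16 of 26 and 10 in KI. Tpcn1, a lysosomal cation channel, changed by -3.45, -3.65 and -4.31, and Slc15a3, a peptide and histidine transporter, rose by 2.93, 4.45 and 4.17. Of 12 further v-ATPase subunits, 3, 6 and 9 rose and 1, 2 and 2 fell, with Atp6v1e1 up by 2.05, 1.92 and 3.06.

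Of a list of genes around mTORC1 and Rag signalling, 14 of 25 fell at 6 h in KO1, 16 of 23 in KO2 and 13 of 23 in KI, with 4, 5 and 7 higher. Flcn, the folliculin gene that acts on RagC and RagD, changed by -2.95, -2.63 and -2.05, and Sesn1, a sestrin that restrains mTORC1 when leucine is low, by -5.77, -6.03 and -7.07. Rheb, the activator of mTORC1, rose by 1.37, 1.04 and 1.84. Of 17 genes that sort hydrolases to lysosomes, 9 fell in each cohort, while M6pr, the cation-dependent mannose-6-phosphate receptor, rose by 1.79, 2.3 and 2.68. Cst7, a cystatin that inhibits cathepsins, rose by 4.56, 7.36 and 6.05.

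In KO1 no gene of these lists was called between genotypes. In KO2 at 24 h, where 6.33% of all genes were higher and 4.99% lower, 5 of 29 other hydrolases were higher and 5 lower in KO, including the tartrate-resistant phosphatase Acp5 (1.47) and the ganglioside activator Gm2a (-0.74). Among membrane proteins 5 of 26 were higher and 2 lower, including Laptm4b (1.27) and Mcoln2 (0.66). Of 23 mTORC1 and Rag genes 3 were higher, namely Rragd (1.21), Fnip2 (0.86) and Flcn (0.69), and 3 lower, with Sesn1 at -0.84. Tfeb, Tfe3 and Mitf themselves were not called between KO and WT in KO2 at any time, and the activity of these factors was not tested. In KI at 6 h, where 7.99% of all genes were higher and 3.49% lower, 5 of 26 membrane proteins were higher and 0 lower, including Cd164 (0.77) and Tmem175 (0.69).

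Markers of cell types moved with genotype in KO2. Of 8 macrophage markers, 1 was higher and 3 lower in KO at 0 h, 0 and 6 at 6 h, and 0 and 4 at 24 h, with the complement genes C1qa (-1.19), C1qc (-1.11) and C1qb (-0.76) lower at 24 h. Their summed level was 14517 to 20884 CPM in WT and 10134 to 14273 in KO at 24 h. Of 5 monocyte markers tested, 2, 2 and 5 were higher, with sums of 16.6 to 25.8 CPM in WT and 35.5 to 45.6 in KO at 24 h. Of 8 osteoclast markers, Acp5, which is also in the hydrolase list, was higher and Dcstamp lower at each time, with sums of 19.4 to 25.2 against 30.2 to 40. Lyz2, which encodes lysozyme and houses the Cre insertion, was lower in KO2 KO cells by 1.51, 1.71 and 1.31. In KO1 no marker was called between genotypes at any time. KO1 neutrophil sums were 91.5 to 138 CPM in WT and 181 to 641 in KO at 0 h. They were 113 to 197 against 130 to 371 at 6 h, and 27.5 to 34.8 against 40.3 to 124 at 24 h. KO1 macrophage sums overlapped at 0 and 6 h and were 16618 to 19803 in WT and 9678 to 15273 in KO at 24 h. In KI, as in KO2, markers moved with genotype. Of its 8 macrophage markers, 1, 6 and 4 were higher in F121A at 0, 6 and 24 h, and 0, 0 and 1 lower. The one at 0 h was C1qc (0.74), and at 24 h they included C1qa (0.58), C1qc (0.57) and C1qb (0.45), with Mertk lower (-0.53). Macrophage sums were 14519 to 16359 CPM in WT and 13006 to 16330 in F121A at 0 h, 9444 to 15171 against 14689 to 17736 at 6 h, and 7320 to 9586 against 8241 to 9887 at 24 h. Of 5 neutrophil markers tested, 2, 3 and 1 were lower and 0 higher, with S100a8 at -0.93 at 0 h and -1.31 at 24 h. Neutrophil sums were 21.1 to 35.7 CPM in WT and 14.3 to 31.7 in F121A at 0 h, 24.4 to 33.7 against 12.2 to 21.1 at 6 h, and 10.8 to 15.6 against 5.76 to 8.81 at 24 h. Of 6 monocyte markers, 0, 1 and 2 were higher and 0, 0 and 1 lower, and Acp5 was the 1 osteoclast marker called, lower at 24 h (-0.75). Lymphocyte and mast cell markers summed to at most 2.16 CPM in every group. The part of these markers in the differences between genotypes was not tested.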

How the data were processed

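RNA was measured by Smart-Seq2 in 137 libraries of 3 cohorts. Per the submitters' processing notes, reads were aligned with TopHat to mm10 and counted with HTSeq, and the versions and annotation are not given in the sources used here. The deposited values are raw counts per gene symbol for 34573 symbols, and 0 columns could not be mapped to a sample. Groups follow the sample titles, also for the 2 libraries whose description names another time. Each cohort was fitted with edgeR 4.0.16 (R 4.3.3): filterByExpr, TMM, one mean per group, a quasi-likelihood F test, and Benjamini-Hochberg adjustment over all 13693 (KO1), 10794 (KO2), 11500 (KI) or 11782 (KO2 and KI jointly) genes tested, with a call at an adjusted p under 0.05. KO1 repeats were summed to cultures. SE is the log2 difference divided by the square root of F. The planned CPM used the total count, and TMM-scaled CPM is printed instead so that levels match the fitted differences; shares of counts and the sex check are unscaled. Levels per kb use merged exons of GENCODE vM21. Promoter sequences are from RefSeq (GRCm38.p6).

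The members and the other lists were chosen with earlier results of these data known. All 38 members are named, with Becn1 and Lyz2, and from each other list up to 3 called genes in each direction with the smallest adjusted p are eligible. The rule asked for full values of the 3 highest and 3 lowest called differences per comparison; others were added where a result turns on them. Median totals per library were 3259979.5 in KO1, 4914865 in KO2 and 7765480.5 in KI, and genes of a few counts are given with them. Whether replicate numbers pair samples was checked: the deviations of same-numbered samples correlated between -0.245 and 0.516 (KO1), -0.345 and 0.459 (KO2) and -0.276 and 0.297 (KI), and the main design has no block. Differently numbered samples correlated between -0.764 and 0.743 (KO1), -0.52 and 0.691 (KO2) and -0.33 and 0.416 (KI). The median correlation in KO1 was 0.3 for same-numbered and -0.074 for differently numbered samples. All 3 pairs were over 0.1 in KO1 for WT between 0 and 6 h (lowest 0.172). The same held for KO between 0 and 6 h (0.116) and between 6 and 24 h (0.298). It did not hold for WT between 0 and 24 h (-0.0709) or 6 and 24 h (0.0621), or for KO between 0 and 24 h (-0.245). The WT values at 6 h are therefore also given with the block, as are the KO1 calls it added at 24 h. Alternatives were DESeq2 1.42.0, DESeq2 size factors, library size alone, no filter, fewer groups, a replicate block, left-out cultures, single or summed libraries, and left-out conflicting samples. Leaving out F121A 0 h library 5 or either set of 3 KI libraries in WT at 0 h, WT at 24 h or F121A at 6 h was chosen after seeing the data. The procedure was tested on simulated data.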

Additional observations from a re-analysis of the deposited data

Results flagged for a closer look

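The following genes are listed because the genotype-by-time test, taken jointly over 6 and 24 h, passed (edgeR adjusted p under 0.05). The difference at 24 h minus 0 h is given for each of them, whether or not it passed by itself. The difference at 6 h minus 0 h is given only where it passed. In KO2, the log2 KO effect at 24 h minus that at 0 h was 2.17 for Gpnmb, 1.85 for Atp6v0d2, 0.90 for Ctsl, 0.75 for Naglu, 0.71 for Ctsa, 0.64 for Hexa, 0.45 for Npc1, 0.38 for Atp6v1h, -0.55 for Ctsh and -1.04 for Ctsc. At 6 h minus 0 h it was 0.62 for Npc1 and -0.61 for Ctsc. In KI, the F121A effect at 24 h minus that at 0 h was 0.98 for Lamp2, 0.66 for Ctsl, 0.62 for Npc2, 0.59 for Gla, 0.52 for Ctsd, 0.52 for Ctss and 0.48 for Ctsh. These use the WT libraries at 24 h that fall into separate sets.

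Each of the next differences passed in the joint fit of both cohorts (edgeR adjusted p under 0.05). The KO effect of KO2 minus the F121A effect of KI was 0.85 for Atp6v0d2 and 0.54 for Gla at 0 h. At 6 h it was 1.09 for Mcoln1, 0.63 for Ctsh, 0.58 for Npc1, 0.51 for Gla, -0.44 for Tfe3 and -0.69 for Man2b1. At 24 h it was 2.91 for Atp6v0d2, 1.91 for Ctsk, 1.65 for Gpnmb, 1.08 for Naglu, 0.71 for Gaa, -0.44 for Scarb2, -0.71 for Lamp2, -0.72 for Ctsc and -0.82 for Ctsh. The cohorts also differ in the sex of the KO2 KO cells.

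F121A library 5 at 0 h had 6.78% of its counts in the 38 genes, where its group's median was 11.4%. It lay farther from the other 5 than the limit for a sample of 6. Of 12 groups tested in this way, chance flags about 1 in 20.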

How the results depend on the processing

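Of 255 alternative counts of called lysosomal genes, 224 lay within 1.5 times the count reported and 31 did not. Of 2780 values of called genes, 2595 kept their direction and call, 168 kept their direction and lost the call, and 17 changed sign, all with library size alone in WT against 0 h. These were, in KO1, Atp6v1h (-0.58) and Lamp2 (-0.04) at 6 h and Tfe3 (-0.49) at 24 h. In KO2 they were Atp6v1h (-0.41), Lamp2 (-0.40) and Tfe3 (-0.43) at 6 h and Tfe3 (-0.11) at 24 h. In KI they were Atp6v1b2 (-0.66), Atp6v1h (-0.22), Ctsz (-0.24), Gla (-0.38), Lamp2 (-0.20) and Npc2 (-0.06) at 6 h, and Atp6v0d1 (-0.39), Atp6v1h (-0.30), Lamp2 (-0.37) and Psap (-0.22) at 24 h. With library size alone, the counts became 36 and 30 for KO1 WT at 6 and 24 h, 17 for KO2 KO against WT at 6 h, and 9 and 14 for KO2 minus KI at 0 and 6 h. With DESeq2 they became 7, 6 and 14 for KI at 0 h, 24 h and genotype by time, and 5 for KO2 minus KI at 0 h. With no filter they became 1 for KO1 KO against WT at 24 h, 3 for KI at 6 h and 1 for KO2 minus KI at 0 h. With single KO1 libraries, 3 of which share each number and time, KO against WT gave 2 at 0 h and 3 at 24 h. With libraries summed in sets of 3, KO2 gave 5 at 0 h and 5 at 6 h, KI 0 at 0 h, 2 at 6 h and 3 for genotype by time, and KO2 minus KI 1 at 0 h; summed in pairs, KI gave 5 at 24 h. Without WT 24 h libraries 1, 3 and 5, KI gave 1 at 24 h, and without 2, 4 and 6 it gave 7. Without WT 0 h libraries 1, 3 and 5, KI gave 1 at 0 h and KO2 minus KI 1 at 0 h, and without 2, 4 and 6 KI gave 0 at 0 h. Without F121A 6 h libraries 1, 2 and 3, KI gave 3 at 6 h, and without 4, 5 and 6 it gave 0. Leaving out each KO1 culture in turn gave 15 to 26 for WT at 6 h, with 15 without S33, and 13 to 20 for WT at 24 h. The cause of these changes was not tested.

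The replicate numbers were not shown to pair the samples compared in any cohort. With the replicate numbers as a block, 27 were called for KO1 WT at 6 h. The KI counts became 6 at 24 h and 12 for genotype by time, and no other count moved by over 1.5 times. KO1 KO and WT share no numbers, so their contrasts have no block. Calls that held in every alternative were 4 of 10, 4 of 9 and 9 of 15 for KO2 at 0, 6 and 24 h, over 7 alternatives. For KI they were 0 of 3, 0 of 5 and 0 of 3, over 16 alternatives. The KI alternatives include fits without 3 libraries of a group, which KO2 did not have, so these counts do not compare the cohorts. In KI at 24 h, Lamp2, Ctsl and Gla were each lost in 1 of 16. Depth limits the genes of few counts, Tfeb at 6 h, Ctsk and Atp6v0d2 at 24 h.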
